A study of Mus musculus with 23 samples.

Results

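The MYB and MYC families of transcription factors were followed through haematopoietic differentiation of mouse embryonic stem (ES) cells with and without RUNX1-ETO, the leukaemic fusion of RUNX1 with the corepressor ETO. The set held 10 genes: Myb, Mybl1 and Mybl2 of the MYB family, Myc, Mycn and Mycl of the MYC family, their shared partner Max, and Mxd1, Mxd4 and Mxi1, which compete with MYC for MAX. Each was read from the probe of its RefSeq transcript with the highest mean, and 8 of the 10 passed a floor on dim genes, as did 15202 of all 20145 genes with a name on the array. RNA was hybridised in 1 colour to Agilent mouse arrays, from cells whose strain the labels give as C57BL/6. All cells, the uninduced ones included, carried a doxycycline (Dox)-inducible human RUNX1-ETO with an HA tag under a Tet-responsive promoter, in A2lox ES cells with wild-type Runx1, and were grown from picked colonies. The uninduced groups were hemogenic endothelium (HE), HE2, progenitors and cultured myeloid progenitors, each without Dox. The first 3 were sorted for KIT, with HE and HE2 positive and progenitors negative for Tie2, and only HE negative for CD41. In the induced groups of HE, HE2 and progenitors, Dox was added at 0.1 μg per ml on day 1 of blast culture, and the cells were sorted together with their uninduced counterparts on day 2. Induced myeloid progenitors received the same dose on day 2, for 12 h, and were harvested with the uninduced ones on day 3. There were 3 arrays in each group but the uninduced and the induced progenitors, which had 2 each. An additional uninduced progenitor array, whose title has it as technical while its source name has it as replicate 3, was kept out of the tests. The labels call the others biological replicates, with 1 exception: induced myeloid progenitor array 3 is called a technical one in 1 of its 2 labels. No label says which cultures were separate, so that P values measure the spread between these arrays.

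MYB proteins bind DNA through a domain of tryptophan-rich repeats. MYB itself is needed for definitive haematopoiesis and is high in immature blood cells, whereas MYBL2, also called B-MYB, is made in most dividing cells and joins the MuvB complex on genes of the late cell cycle. MYC, MYCN and MYCL activate genes of growth and ribosome production as dimers with MAX, and the MXD proteins and MXI1 form dimers with MAX that repress such genes as cells leave the cycle. The study asked how the response to RUNX1-ETO depends on the stage at which it is expressed.

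Values are log2 intensities after background correction and quantile normalization, and a difference is given on the same scale as induced minus uninduced, or later minus earlier stage. Calls rested on a limma fit across all genes and needed both a difference of 2-fold or more and an unadjusted P of 0.001 or less, with P values adjusted (Benjamini-Hochberg) over the 15202 genes. Between 48.8 and 78.4% of an array's spots were well above background and none was saturated. The number of arrays limits the precision. All HE and HE2 arrays were on slides 1 and 2, all myeloid arrays were on slide 3, and progenitors were on all 3 slides. The probe for Runx1t1, the mouse gene for ETO, separated induced from uninduced arrays within each stage, the induced ones being brighter. Differences were 1.24, 2.08, 3.96 and 2.06 in HE, HE2, progenitors and myeloid progenitors, and that in HE was not called (adjusted P = 0.0155). Means of induced groups were alike, at 11.67 to 12.06, whereas uninduced ones were 7.71 in progenitors and 9.88 to 10.81 in the other stages. Of the genes for the sorting markers, Kit, Tek (Tie2) and Itga2b (CD41) were well above background on all 22 arrays tested, and Itga2b, at 9.50 to 11.46 on uninduced HE arrays, was thus detected in cells sorted as CD41-. It was lower on induced HE arrays, at 6.92 to 8.02. In HE2, sorted as CD41+, it lay at 11.19 to 12.51 without and 7.73 to 10.75 with Dox. The progenitor groups overlapped (11.42 to 11.91 and 10.41 to 12.67), and myeloid progenitors had 14.23 to 14.35 without and 13.32 to 13.46 with Dox. Tek was at 8.63 and 8.71 on uninduced but 10.91 and 11.29 on induced progenitor arrays, although both were sorted as Tie2-.

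Erythroid markers moved with Dox in part. The embryonic globin Hbb-bh1 lay at 14.76 to 15.26 on uninduced and 17.21 to 18.18 on induced HE arrays, at 16.14 to 16.58 and 18.19 to 18.45 in HE2, and at 17.19 to 17.53 and 18.35 to 18.79 in progenitors. In myeloid progenitors it was 18.73 without and 18.65 to 18.73 with Dox, and there it was the brightest tested gene on 5 of 6 arrays, at the top of the normalised scale, so that no difference can be read from it in this stage. Epor, the erythropoietin receptor, was likewise higher on all induced arrays of HE2 (11.40 to 12.18 and 13.02 to 13.95), whereas Hba-x lay at 8.21 to 8.89 on uninduced and 7.53 to 8.91 on induced HE arrays. The summed intensity of 5 endothelial markers, all well above background in HE and HE2, was 15.27 to 15.52 without and 16.21 to 16.60 with Dox in HE2. It was 13.93 to 13.99 and 14.88 to 15.21 in progenitors, and 12.88 to 13.43 and 15.13 to 15.36 in myeloid progenitors, whereas the HE groups overlapped. Cdh5 differed from the sum, at 14.92 to 15.13 without and 14.08 to 14.54 with Dox in HE, and 12.58 and 12.29 to 13.06 in progenitors. The summed intensity of 5 markers of cardiac and smooth muscle was 16.66 to 17.84 without and 15.15 to 15.60 with Dox in HE, 14.89 to 16.68 and 13.52 to 13.63 in HE2, 14.19 to 14.66 and 12.66 to 14.03 in progenitors, and, the other way round, 11.22 to 11.75 and 12.62 to 13.14 in myeloid progenitors. The brightest of these in HE and HE2 were Tagln and Acta2. In HE2 the cardiac gene Tnnt2 had means of 10.25 without and 10.35 with Dox, whereas Actc1 had 10.16 and 7.19. In myeloid progenitors Tnnt2 had the highest mean of the 5, at 10.14 without and 12.33 with Dox. The part of such cells in the results was not tested, and in sorted populations of this kind fewer cells of a type and less RNA per cell cannot be told apart.

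The sequences that follow are the 250 bases before the start of Myb, Mybl2 and Mxd1, shown because these 3 genes had the clearest values below. They are RefSeq sequences of GRCm38.p6, in which 8 of the 10 genes (all but Myc and Mybl1) had an entry. Capitals mark a match to GGCGGGA, a core of E2F sites, on either strand.
Myb, chr10:21160985-21161234, minus strand: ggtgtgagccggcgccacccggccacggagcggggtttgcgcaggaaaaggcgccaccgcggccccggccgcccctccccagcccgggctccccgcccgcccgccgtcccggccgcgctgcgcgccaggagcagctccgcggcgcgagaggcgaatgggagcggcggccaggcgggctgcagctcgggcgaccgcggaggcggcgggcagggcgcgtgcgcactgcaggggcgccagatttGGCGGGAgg
Mybl2, chr2:163054385-163054634, plus strand: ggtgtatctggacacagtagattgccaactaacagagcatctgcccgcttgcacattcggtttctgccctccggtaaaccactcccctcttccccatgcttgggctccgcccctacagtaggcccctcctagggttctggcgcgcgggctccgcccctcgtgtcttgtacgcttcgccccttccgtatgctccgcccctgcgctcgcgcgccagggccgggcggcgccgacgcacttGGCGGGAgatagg
Mxd1, chr6:86669160-86669409, minus strand: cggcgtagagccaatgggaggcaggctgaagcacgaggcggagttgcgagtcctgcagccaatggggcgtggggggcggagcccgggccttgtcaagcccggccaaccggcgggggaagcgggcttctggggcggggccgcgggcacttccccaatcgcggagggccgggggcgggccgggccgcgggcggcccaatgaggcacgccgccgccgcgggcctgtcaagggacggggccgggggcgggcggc
Myb and Mybl2 both held this motif directly ahead of the start, at bases 9 to 3 before it in Myb and 13 to 7 before it in Mybl2, and 9.75% of all 32851 such windows held it. It was added after the sequences had been seen. The other 6 motifs searched, on both strands, were TGTGGT and TGCGGT for RUNX (in 14% and 5.1% of all windows), CACGTG, the E-box of MYC and MAX (6.02%), GCGNGAA, another E2F form that can overlap the first (7.36%), AACNGTT for MYB (3.8%) and TTTGAA, the cell cycle homology region (16%). None of the 7 motifs occurred in the window of Mxd1, which was 78.4% GC. Among the other members, GGCGGGA also occurred in the window of Mycl, and thus, with Mxi1, in 4 of the 8 genes with an entry. Mxi1 had several windows: chr19:53329163-53329412 and chr19:53329445-53329694 held the motif, and chr19:53310256-53310505 did not. The share of 9.75% is per window, not per gene. GCGNGAA occurred in the windows of Mycn and Max, TTTGAA in that of Mycn, TGCGGT in that of Max and CACGTG in that of Mxd4. A match is a description of these letters, not a binding site.

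Myb rose at the step from HE to HE2, with and without Dox. On the 3 uninduced HE arrays it measured 9.86, 9.67 and 8.84, compared with 8.31, 9.38 and 7.87 after induction. On uninduced HE2 arrays it was 12.25, 12.48 and 12.85, and on induced ones 11.87, 11.85 and 11.83. All HE2 arrays thus lay above all HE arrays, and within HE2 every induced array lay below every uninduced one, whereas the HE groups overlapped. Progenitors measured 13.38 and 13.56 without and 13.07 and 13.38 with Dox. In myeloid progenitors the values were 13.24, 12.93 and 12.96 without Dox and 13.55, 12.99 and 12.62 with Dox. Levels thus ran from induced HE and uninduced HE (means of 8.52 and 9.46, overlapping) through induced HE2 (11.85) and uninduced HE2 (12.53) to the myeloid progenitors and progenitors (13.05 to 13.47), whose neighbours in this order overlapped.

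From HE to HE2, Myb rose by 3.07 without Dox (standard error (SE) 0.326, adjusted P = 7.56e-06) and by 3.33 with Dox (SE 0.326, adjusted P = 7.91e-06), or 8.40-fold and 10.1-fold. Within slide 1 the uninduced difference was 2.61 and within slide 2 it was 4.003, and the induced ones were 3.56 and 3.22. From HE2 to progenitors the values were 0.94 without Dox (adjusted P = 0.146) and 1.38 with Dox (SE 0.364, adjusted P = 0.0151) and neither was called, although the groups overlapped in neither case. The difference with Dox was -0.94 in HE (SE 0.326, adjusted P = 0.0602), -0.68 in HE2 (adjusted P = 0.175), -0.24 in progenitors and 0.01 in myeloid progenitors. None passed the threshold. In HE it rested on single arrays: without induced array 2 it was -1.37 and past the threshold (adjusted P = 0.00396), and without induced array 3 it was -0.61. The test of a difference in this response between HE and myeloid progenitors gave 0.95 (95% confidence interval -0.02 to 1.92, adjusted P = 0.323).

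Within each stage all tested induced arrays gave less Mybl2 than all tested uninduced ones. The differences were smaller than the fold set for a call. Mybl2 measured 13.96, 14.42 and 13.29 on uninduced and 12.40, 13.24 and 13.04 on induced HE arrays. In HE2 it was 13.86, 14.19 and 13.33 without and 12.88, 12.58 and 12.94 with Dox. Progenitors gave 14.13 and 14.19 without and 13.71 and 12.97 with Dox. The additional uninduced progenitor array, kept out of the tests, gave 13.33, below the induced array at 13.71. Myeloid progenitors gave 13.37, 13.17 and 13.46 without and 12.44, 12.96 and 12.71 with Dox. In none of the stages did the tested groups overlap, but in progenitors they would with the additional array. The differences were -0.995 in HE (SE 0.289, adjusted P = 0.0242), -0.99 in HE2 (SE 0.289, adjusted P = 0.0236), -0.82 in progenitors (SE 0.354, adjusted P = 0.200) and -0.63 in myeloid progenitors (SE 0.289, adjusted P = 0.181). The mean of the 4 differences, a comparison added after the single stages had been seen, was -0.86 (95% confidence interval -1.18 to -0.54, adjusted P = 0.000258), past the P value but at 1.81-fold short of 2-fold. The dimmer of the 2 Mybl2 probes gave differences of -0.76, -0.55, -0.56 and -0.81 in the same order.

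The slide moved with part of this. Within slide 1 the Mybl2 difference in HE was -1.79, and within slide 2 it was -0.15, where the 1 uninduced array was also the lowest of its group. In HE2 the values were -1.14 and -0.57. The additional uninduced progenitor array, on slide 3, measured 13.33, below the other 2 uninduced progenitor arrays and between the 2 induced ones. Without uninduced HE array 3 the difference in HE was -1.30 and passed the threshold (adjusted P = 0.00536). Among uninduced cells Mybl2 had means of 13.89 and 13.79 in HE and HE2, 14.16 for progenitors and 13.33 for myeloid progenitors, and no step between stages was called. The difference from progenitors to myeloid progenitors was -0.83 (adjusted P = 0.0570), but 0.00 against the additional progenitor array on the slide of the myeloid arrays. Mybl1, the third family member, reached at most 6.34, below the floor of 6.5, so that it was not tested, although its spot was well above background on 18 of 23 arrays. Its group means lay between 5.68 and 6.18 and each overlapped the next.

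**Figure D1:**
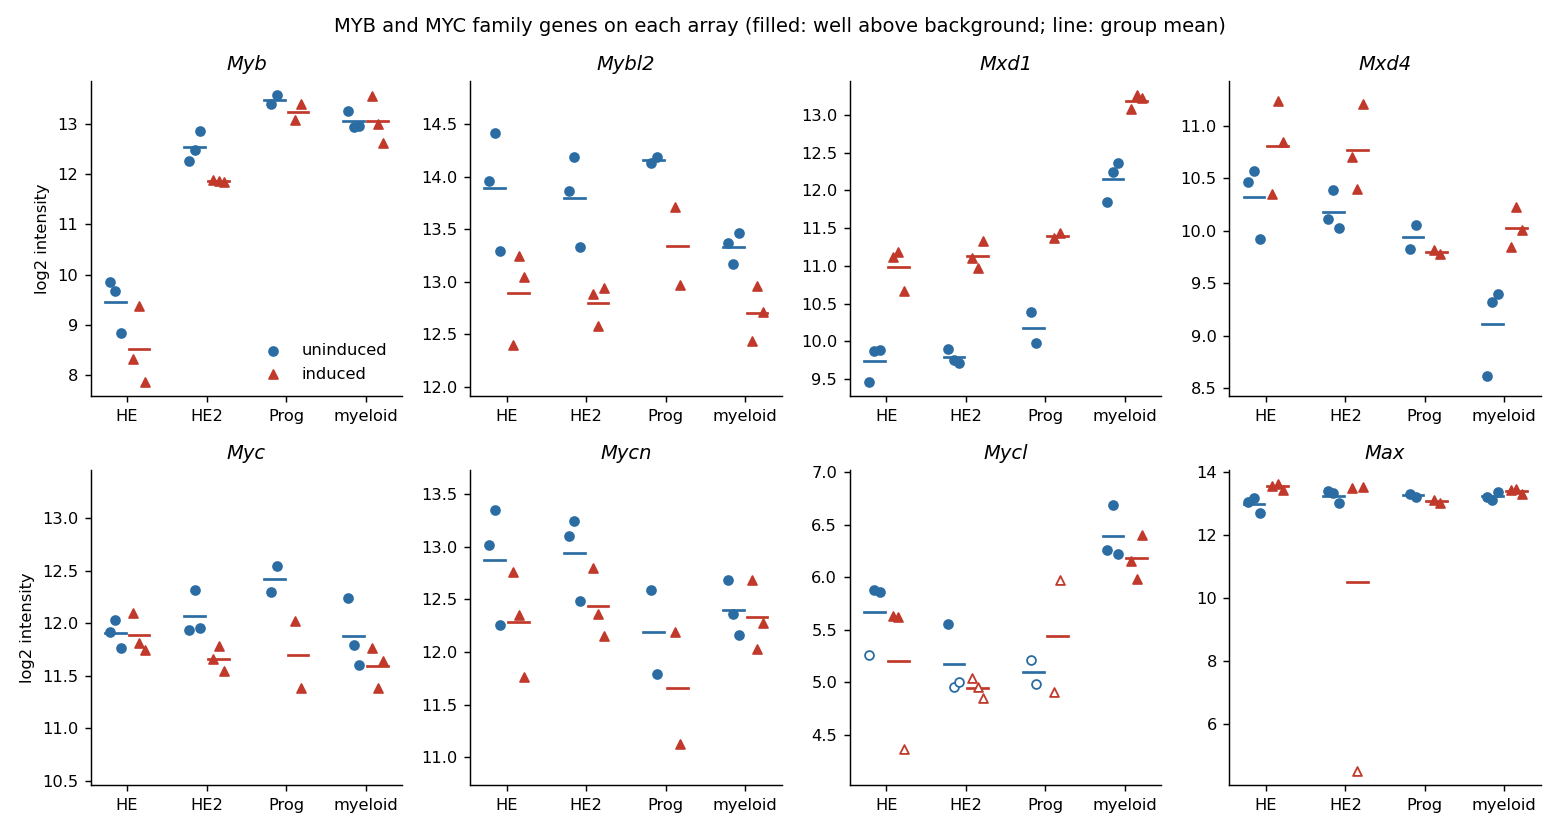
The log2 intensity of the 8 tested genes on each array (y axis, one scale per gene), by stage (x axis), in uninduced (blue circles) and induced (red triangles) cells, with a line at each group mean; open symbols were not well above background. Mxd1 is higher on all induced arrays of each stage and highest in myeloid progenitors, Myb is lowest in HE, and 1 Max spot lies at 4.52.

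Myc itself passed the threshold in no comparison. Its levels lay between 11.38 and 12.54 on all arrays, with group means from 11.59 in induced myeloid progenitors to 12.42 in uninduced progenitors, and each group overlapped the next in this order. With Dox the difference was -0.01 (HE), -0.41 (HE2), -0.72 (progenitors) and -0.28 (myeloid). The largest of these, in progenitors, came from 12.30 and 12.54 on uninduced and 12.02 and 11.38 on induced arrays (SE 0.244, adjusted P = 0.0979). The induced array at 11.38 was on slide 3, on which the additional uninduced progenitor array measured 11.55, and within slide 1 the difference was -0.28. The mean over the 4 stages was -0.36 (adjusted P = 0.0130), or 1.28-fold. From progenitors to myeloid progenitors the value was -0.55 (adjusted P = 0.0677), and 0.32 against the additional progenitor array, so that the sign turned within slide 3.

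Mycn, which is used widely in embryonic cells, ranged more from array to array. Its group means ran from 11.65 in induced progenitors to 12.95 in uninduced HE2, and every group overlapped the next. Uninduced HE arrays measured 13.02, 13.35 and 12.26 and induced ones 12.76, 12.35 and 11.76, so that the spread within a group was as wide as the difference of -0.58 (SE 0.348, adjusted P = 0.322). In HE2, progenitors and myeloid progenitors the differences were -0.51, -0.54 and -0.07, and none passed the threshold. Within slides the differences in HE were -0.42 and -0.20, and both arms were lower on slide 2.

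Mycl was dim. It reached the floor of 6.5 on 1 array, an uninduced myeloid progenitor one at 6.68, and so entered the fit through the group in which it was highest. Its differences are therefore given as a description. It was well above background on 11 of 23 arrays, among them all 6 myeloid progenitor arrays, at 6.25, 6.68 and 6.22 without and 6.15, 5.99 and 6.403 with Dox, and on no array of induced HE2 or of either progenitor group. From uninduced progenitors, which measured 5.21 and 4.99, to uninduced myeloid progenitors it was 2.44-fold higher as measured. The dimmer group was not well above background. Slide moved with it: the additional progenitor array on the slide of the myeloid arrays gave 5.89, a difference of 0.50. With slide as a block the difference was 0.13. That block estimated slide 3 from 1 array alone, an induced progenitor array at 5.97 that was not well above background.

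Mxd1 was the member called as changed with Dox, in all 4 stages. In HE it measured 9.46, 9.87 and 9.88 without and 11.12, 11.18 and 10.67 with Dox. In HE2 the values were 9.90, 9.75 and 9.72 without and 11.10, 10.97 and 11.33 with Dox. Uninduced and induced arrays were thus separated by more than the spread within either group, and the 2 stages were alike in level. Progenitors gave 10.39 and 9.97 without and 11.37 and 11.43 with Dox. Myeloid progenitors started higher, at 11.84, 12.24 and 12.36, and reached 13.08, 13.26 and 13.23 with Dox, so that the groups did not overlap there either.

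Mxd1 was upregulated by 1.252 in HE (SE 0.185, adjusted P = 0.000111), 1.34 in HE2 (SE 0.185, adjusted P = 7.34e-05), 1.22 in progenitors (SE 0.227, adjusted P = 0.00271) and 1.04 in myeloid progenitors (SE 0.185, adjusted P = 0.000701), which is 2.38-, 2.53-, 2.33- and 2.06-fold. The mean over the stages was 1.21 (95% confidence interval 1.01 to 1.42, adjusted P = 3.37e-08). Within slides the differences were 1.46 and 1.04 in HE, 1.27 and 1.43 in HE2 and 0.98 in progenitors, and on slide 3 the induced progenitor array was 1.36 above the additional uninduced one. Tests of a difference in the response gave 0.09 between HE and HE2 (95% confidence interval -0.46 to 0.64), -0.12 between HE2 and progenitors (-0.74 to 0.49) and -0.21 between HE and myeloid progenitors (-0.76 to 0.34), and none of these differed from 0 beyond its error.

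Mxd1 differed by stage as well. From uninduced progenitors to uninduced myeloid progenitors it was upregulated by 1.96 (SE 0.207, adjusted P = 1.83e-06), or 3.90-fold. Since the myeloid arrays were all on slide 3, the additional progenitor array of that slide was set against them, and at 10.06 it was 2.08 below their mean. Uninduced HE and HE2 overlapped, uninduced progenitors lay just above them, and every induced group of the 3 early stages lay below uninduced myeloid progenitors. A second, dimmer Mxd1 probe gave smaller values in the same direction: 1.13 in HE and 1.18 in HE2, both past the threshold, 0.57 in progenitors (adjusted P = 0.358) and 0.95 in myeloid progenitors (adjusted P = 0.0289), neither of which was. From progenitors to myeloid progenitors without Dox it gave 0.88 (adjusted P = 0.0312), not past the threshold either, compared with 1.96 on the brighter probe. In progenitors the call with the brighter probe was also lost without uninduced array 2 (1.01, adjusted P = 0.0680) and with slide as a block (1.15, adjusted P = 0.0514). In myeloid progenitors it was lost without uninduced array 1, where the difference was 0.89.

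**Figure D2:**
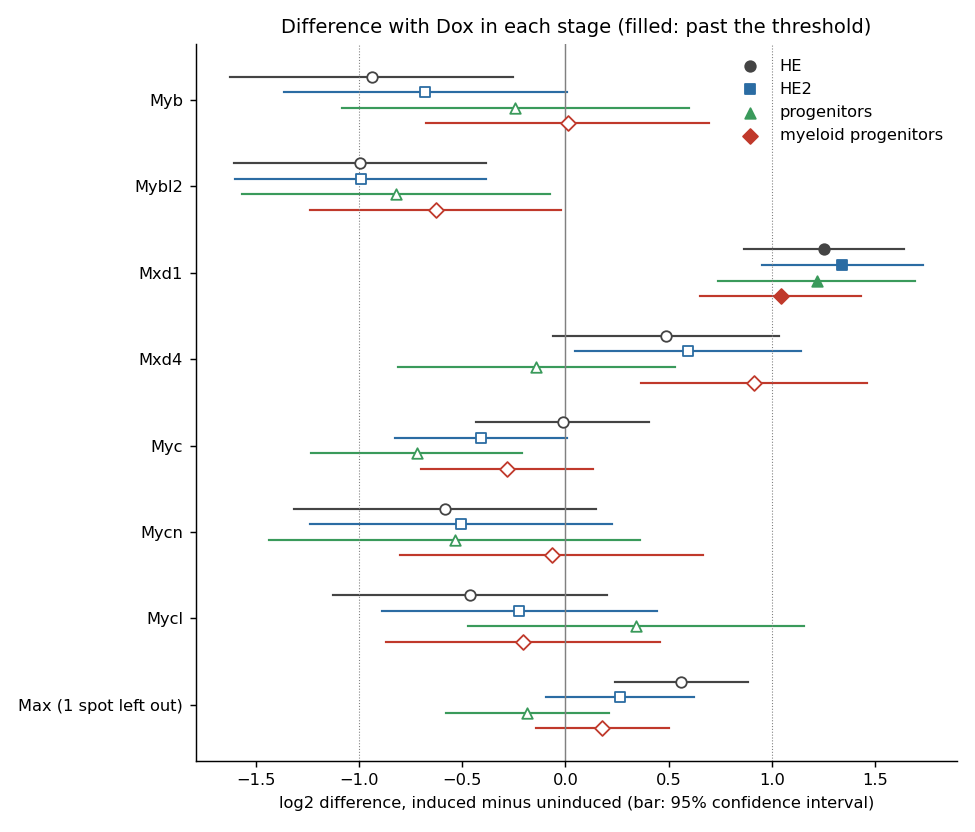
The difference with Dox in log2 intensity (x axis, induced minus uninduced, with bars for the 95% confidence interval) of each tested gene (y axis) in the 4 stages; filled symbols passed the threshold and dotted lines mark 2-fold. Mxd1 alone passed it, at 1.04 to 1.34 in the 4 stages, whereas all 4 Mybl2 differences lie between -0.63 and -0.995. Max is shown without the spot at background.

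Mxd4 and Max were less clear. Mxd4, another MAX partner found in differentiating cells, measured 8.62, 9.32 and 9.40 on uninduced and 9.84, 10.23 and 10.01 on induced myeloid progenitor arrays. The groups did not overlap, with a difference of 0.91 (SE 0.260, adjusted P = 0.0239), just short of the threshold. In HE and HE2 it was 0.49 and 0.60, and in progenitors -0.14. The value in HE was -0.17 within slide 1 and 1.11 within slide 2. From progenitors to myeloid progenitors without Dox it was -0.82 (adjusted P = 0.0370), and -0.89 against the additional progenitor array, short of 2-fold in both cases. The dimmer Mxd4 probe gave 0.86 in myeloid progenitors and 0.05, 0.43 and -0.28 in HE, HE2 and progenitors. From HE2 to progenitors with Dox the Mxd4 difference was -0.97 (adjusted P = 0.0309), without overlap of the groups, compared with -0.24 without Dox.

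Max, the obligate partner of the family, had a spot at background on induced HE2 array 2, with a median signal of 25 against a local background of 20 and without an outlier flag, whereas the other 22 arrays gave log2 intensities of 12.70 to 13.61. With this spot the difference with Dox in HE2 was -2.73 (SE 1.43, adjusted P = 0.218), and without it 0.26 (SE 0.171, adjusted P = 0.338), so that the sign depended on 1 spot. Without it, the largest value was 0.56 in HE (SE 0.153, adjusted P = 0.0173), 1.48-fold, where the groups did not overlap. Mxi1 reached at most 5.67 and was well above background on 6 of 23 arrays, so that it was not tested. Its group means lay between 5.04 and 5.45 and overlapped throughout.

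**Figure D3:**
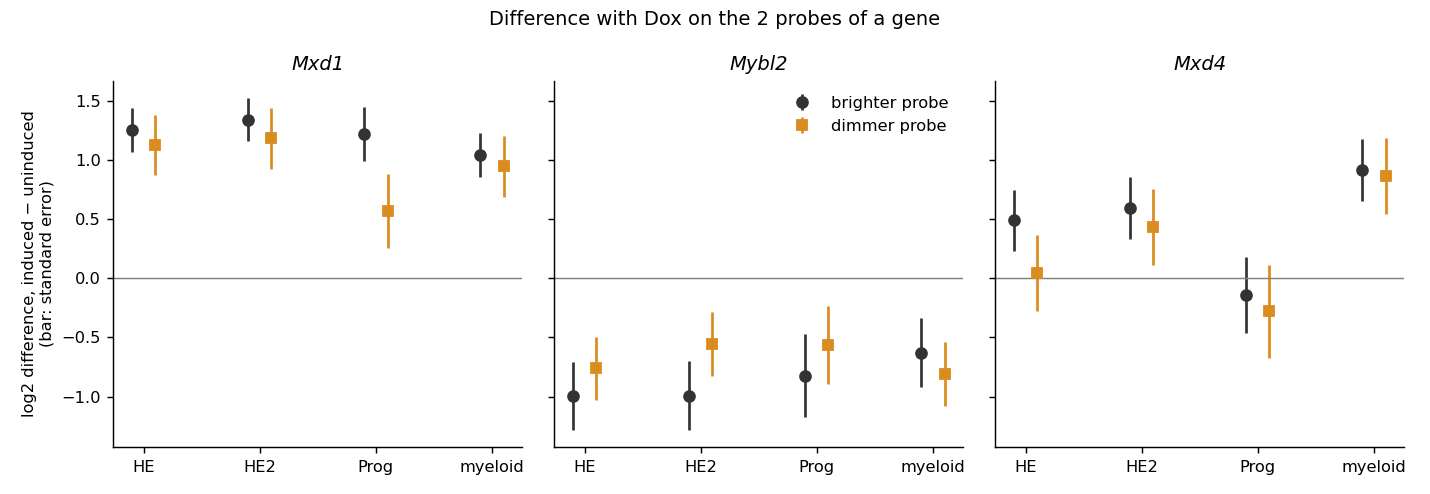
The difference with Dox in log2 intensity (y axis, with bars for the SE) on the brighter and the dimmer probe of Mxd1, Mybl2 and Mxd4 in each stage (x axis). Both probes of Mxd1 lie above 0 and both of Mybl2 below 0 in all 4 stages, and the Mxd1 probes differ most in progenitors (1.22 and 0.57).

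Counted over the set, 1 of the 8 tested members changed with Dox in each stage, Mxd1 each time, against 7.09% of all genes tested in HE, 7.22% (HE2), 3.73% (progenitors) and 6.31% (myeloid progenitors). A count of 1 in 8 is near this background. For the mean over the 4 stages it was also 1 of 8, against 5.76%. From HE to HE2, 1 of 8 changed without Dox (Myb, against 5.07%) and 1 with Dox (Myb, against 3.1%). Between HE2 and progenitors 0 of 8 changed, against 5.39% of genes without and 7.36% with Dox in limma, with 1 and 2 of the members at an unadjusted P under 0.05, as were 18.2% and 26.4% of all genes. From progenitors to myeloid progenitors 1 of 8 changed (Mxd1), against 13.9% of genes. At this step slide and stage were fully shared: tested uninduced progenitors were on slides 1 and 2, uninduced myeloid progenitors on slide 3. This also holds for the genes of the lists below. A block for slide estimated slide 3 from 1 array alone, the induced progenitor array on that slide. With slide as a block 574 genes were called at this step, compared with 2118 without it. A difference in the Dox response was called for 0 of 8 between HE and HE2, between HE2 and progenitors and between HE and myeloid progenitors, against 1.34%, 0.645% and 4.72% of genes, and no member had an unadjusted P under 0.05 in these tests. At an unadjusted P under 0.05, the share of all genes tested was 26.9% with Dox in HE, 29.5% (HE2), 20.2% (progenitors) and 25.4% (myeloid progenitors), and the share with a difference below 0 was 50.6, 52.1, 53.9 and 52.1%. The counts for the lists that follow stand beside these shares. The median difference with Dox over the 8 members was -0.24, -0.46, -0.21 and -0.03 from HE to myeloid progenitors, compared with -0.01, -0.03, -0.04 and -0.02 over all genes. These medians include Max with its spot at background.

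The remaining genes of the MAX network (Mxd3, Mnt, Mga, Mlx, Mlxip and Mlxipl) did not follow Mxd1, in that 0 of 6 passed the threshold in any comparison in limma, and with Dox 1 in all, Mnt in HE2, had an unadjusted P under 0.05. They had median differences of 0.03, 0.13, 0.23 and -0.04 with Dox in the 4 stages. Mnt, a broadly made partner of MAX that represses, differed by 0.57 in HE2 (adjusted P = 0.0517) and had means of 12.90 on uninduced and 13.24 on induced myeloid progenitor arrays. Of 12 genes for MYC cofactors and MYC turnover 10 were tested, and 0 changed with Dox in limma, with 4, 4, 2 and 3 at an unadjusted P under 0.05 in HE, HE2, progenitors and myeloid progenitors. Ruvbl1, an ATPase of chromatin complexes that bind MYC, gave -0.72, -0.83, -0.46 and -0.42, past the P value in HE and HE2 (adjusted P = 0.00106 and 0.000338) but short of 2-fold. In this list 1 gene was downregulated from progenitors to myeloid progenitors, Usp28, the deubiquitinase that stabilises MYC (-1.34, adjusted P = 0.000237).

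Of 20 MYC target genes, the difference with Dox was below 0 for 17 in HE and for 17 in HE2, compared with 12 in progenitors and 18 in myeloid progenitors. The medians were -0.35, -0.32, -0.06 and -0.36. At an unadjusted P under 0.05 there were 3, 6, 1 and 6 of 20, compared with 20.2 to 29.5% of all genes. The only call in limma with Dox was Tfrc, the transferrin receptor, which was downregulated by 1.22 in induced myeloid progenitors (SE 0.278, adjusted P = 0.00569). From progenitors to myeloid progenitors without Dox, Tfrc was upregulated (3.20, adjusted P = 6.77e-07) and Cdk4, the kinase of cyclin D, was downregulated (-1.10, adjusted P = 4.39e-05). Tfrc is also an erythroid gene, and the group means of Hba-x and Epor were highest in myeloid progenitors. A link to the Tfrc values was not tested. For Tfrc and Cdk4, slide and stage were fully shared at the step from progenitors to myeloid progenitors.

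Late cell cycle genes bound by MYBL2 with MuvB and FOXM1 were below 0 with Dox in 12 of 12 cases in HE, HE2 and myeloid progenitors and in 8 of 12 in progenitors, with medians of -0.63, -0.51, -0.49 and -0.12, and 0 of 12 passed the threshold. None reached 2-fold: Plk1, a mitotic kinase, gave -0.63 in HE and -0.82 in HE2 (SE 0.187, adjusted P = 0.00502), and Ccnb1, cyclin B1, gave -0.76 and -0.65. At an unadjusted P under 0.05 there were 8 of 12 (HE), 10 (HE2), 1 (progenitors) and 7 (myeloid progenitors), where the shares of all genes were 26.9, 29.5, 20.2 and 25.4%. The 9 subunits of MuvB and DREAM themselves had medians of -0.09, -0.11, -0.23 and -0.17 in the 4 stages, with 0 called in any comparison in limma and 2, 2, 1 and 2 at an unadjusted P under 0.05 with Dox. Ccnb1 was upregulated from progenitors to myeloid progenitors without Dox (1.06, adjusted P = 0.00440).

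Haematopoietic genes known as MYB targets went separate ways. Mpo, the myeloperoxidase of granulocyte precursors, was, like Myb, upregulated from HE to HE2 (3.34 without and 3.00 with Dox, adjusted P = 1.00e-05 and 5.81e-05), and rose on to progenitors (1.80 and 2.53, adjusted P = 0.00747 and 0.000350). With Dox it was downregulated in HE2 (-1.48, SE 0.364, adjusted P = 0.00848) and measured -1.13, -0.75 and -0.85 in HE, progenitors and myeloid progenitors. Gfi1, a repressor that guides granulocyte fate, was upregulated by 3.22 in induced myeloid progenitors (SE 0.408, adjusted P = 2.36e-05), and its response differed from that in HE, where it was -0.62 (difference of 3.85, adjusted P = 0.000426). Lmo2, a partner of TAL1, was upregulated by 1.06 in induced HE (adjusted P = 0.00423). Kit fell by 2.61 from progenitors to myeloid progenitors (adjusted P = 1.51e-05), as did Gata3 (-2.00) and Mpo (-1.86), a step at which slide and stage were fully shared. From HE2 to progenitors Gata3 was downregulated without and with Dox (-1.41 and -1.49), Gfi1 without Dox (-1.93) and Bcl2, which protects from apoptosis, with Dox (-1.28). Over the list of 10, Dox changed 1 gene each in HE, HE2 and myeloid progenitors and 0 in progenitors, where 4 had an unadjusted P under 0.05, Gfi1 among them at 1.70 (adjusted P = 0.0561), with medians of 0.18, 0.27, 0.69 and -0.10.

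**Figure D4:**
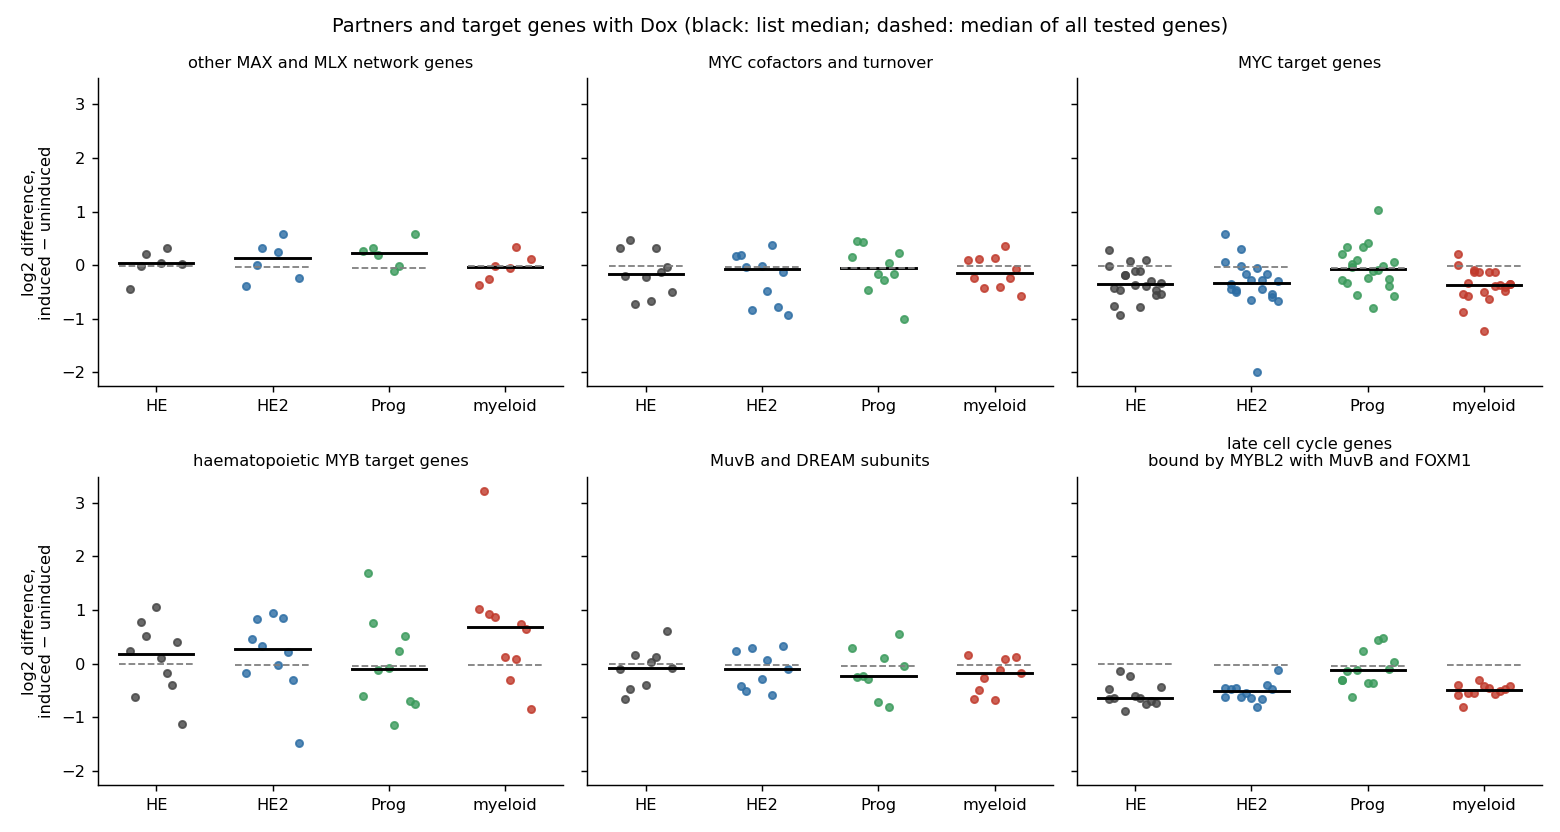
The difference with Dox in log2 intensity (y axis) of each tested gene of 6 lists of partners and targets (points) in the 4 stages (x axis), with the list median (black line) and the median of all tested genes (dashed line). The late cell cycle list lies below 0 throughout in HE, HE2 and myeloid progenitors, with medians of -0.63, -0.51 and -0.49, and 1 MYB target, Gfi1, lies at 3.22 in myeloid progenitors.

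Genes with a similar course over the 8 group means were taken among 9365 tested genes whose means spanned at least 2-fold. For Myb these were P2rx1, Adgrg1 and Itgb3 (Pearson r of 0.999, 0.996 and 0.989). Those nearest to Mxd1 were Dennd2c, Tom1l1 and Rnf114 (r of 0.991 to 0.990), and nearest to Mybl2 were Znrf3, Mthfd1 and Rtca (0.987 to 0.982). Mxd4 was followed most closely by Tmem106b, Pitpnm2 and Mex3c (0.988 to 0.982), Mycl by Pid1, Kif3b and Sun1 (0.989 to 0.979), and Mycn by Bcat1, Slit1 and Myo5a (0.945 to 0.875). Myc and Max spanned less than 2-fold once the Max spot at background was left out. With 8 points that share slides and normalization, and 9365 genes to pick from, such values describe the profiles and carry no test.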

How the data were processed

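RNA from the sorted and cultured cells was hybridised to Agilent mouse arrays in 1 colour, 23 arrays on 3 slides scanned on 2 days. The authors deposited scanner files with spot intensity (Feature Extraction, version 10.7.3.1 in the file headers and 10.7.1.1 in the submitters' processing notes) and a table of log2 values that they had background-corrected and quantile-normalised with limma. The lowest deposited log2 value was 5.65, and these values lay nearer to values made with a normexp offset of 50 (median gap 0.0374) than with the offset of 16 stated in the methods (0.620), so the scanner intensities were used with the stated offset and the deposited values as an alternative.

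Median spot signals were corrected with normexp (offset 16) on all spots, 3671 control spots and outlier-flagged spots were left out, arrays were quantile-normalised and spots of 1 probe were averaged (limma 3.58.1, R 4.3.3). Of 55681 probes, 26582 had a symbol through their RefSeq accession, for 20145 genes. The probe with the highest mean stood for a gene, and 15202 genes reaching 6.5 on at least 1 array were tested. Group means were fitted on 22 arrays (14 residual degrees of freedom) with lmFit and eBayes. The additional progenitor array entered the normalization only (r of 0.983 with both uninduced progenitor arrays, compared with 0.987 between those). A call needed a P value of at most 0.001 and 2-fold. No column of per-sample values was left out. The fit was tested on simulated data.

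The members, lists and tests were chosen with earlier results of these data known. Named were all members, called genes of the lists (at most 4 a list and comparison) and, for each member spanning 2-fold, the 3 genes with the most similar group means. Ruvbl1, Mnt, Plk1 and values of Ccnb1, Mpo and Gfi1 that were not called were picked after they had been seen. The values of some markers are not reported here. Among comparisons with 3 pairs of same-numbered arrays, all pairs deviated together only for uninduced HE and HE2 (r of 0.394, 0.797 and 0.610). The arrays of each such pair were also on the same slide, so that pairing and slide cannot be told apart. The main fit was unpaired, and replicate number entered only as a block in an alternative. Alternatives concerned background correction, scaling, filters, probes, thresholds, blocks for slide, scan day and replicate number, the samples fitted and each array left out in turn.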

Additional observations from a re-analysis of the deposited data

How the results depend on the processing

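With Dox in HE, HE2, progenitors and myeloid progenitors, Mxd1 lay above 0 under every alternative run and Mybl2 below 0 under those that left out no array (and, in HE, also those that did), and the Myb calls from HE to HE2 held under all 20 alternatives each (2.76 to 3.30 without and 3.01 to 3.76 with Dox). The count of members changed with Dox in HE was 1 to 2 when an array was left out: 2 without uninduced array 3 (Mybl2, -1.30) and 2 without induced array 2 (Myb, -1.37). In progenitors it was 0 to 1 in this way, 0 without uninduced array 2, and it was also 0 with the mean of the probes of a gene (Mxd1 at 0.89, adjusted P = 0.0309), with a slide block (1.15, adjusted P = 0.0514) and with only the groups compared (adjusted P = 0.139). In myeloid progenitors it was 0 to 1, 0 without uninduced array 1, and 0 with 75th percentile scaling (0.88) and with the mean of the probes (0.99). From progenitors to myeloid progenitors it was 2 with a threshold on the adjusted P and 2 with only the groups compared, Mycl being added, which reached the floor on 1 array of the brighter group only. From HE2 to progenitors with Dox it was 1, Myb, with an offset of 50, with a threshold on the adjusted P and with only the groups compared. For the mean over the stages it was 2 with 75th percentile scaling, where Mybl2 passed at -1.03. This scaling moved the median of all genes to -0.19 in progenitors, -0.15 in myeloid progenitors and -0.25 from progenitors to myeloid progenitors. With the replicate number as a block the counts were 1 in each stage with Dox, 1 from HE to HE2 without and with Dox, 1 from progenitors to myeloid progenitors and 0 from HE2 to progenitors, so that the block changed no call. Where changes were lost or gained, the cause was not tested. The number of arrays, 2 in each progenitor group, limits these results, and Mycl, Mybl1 and Mxi1 were too near background for more.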
